A study of Mus musculus with 6 samples.

Results

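Insulin-like growth factor 1 (IGF1), its receptor and its binding proteins were followed in bulk RNA-seq of mouse testis. The members are the 9 rows of the count table, of 54100 in all, that carry the symbols Igf1, Igf1r, Igfbp2, Igfbp3, Igfbp4, Igfbp5, Igfbp6, Igfbp7 and Igfals. RNA came from frozen testis sections of 3 wild-type (WT) mice and 3 mice lacking H3t, which encodes a testis form of histone H3, with 1 library from each sample. The labels give no treatment, age or strain, and they do not state the cell type or time at which the deletion acts. The study asked about Leydig cells, which make testosterone in the space around the tubules, when sperm production fails.

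IGF1 is a secreted growth factor related to insulin. It binds the tyrosine kinase receptor encoded by Igf1r, which signals through insulin receptor substrates to the PI3K, AKT and MAPK pathways. The binding proteins hold IGF1 outside cells, where they lengthen its life, keep it from the receptor or carry it to it, and proteases release it by cutting them. In the testis IGF1 is known as a local factor that favours growth and steroid synthesis in Leydig cells and supports Sertoli and germ cells.

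Within the whole series, library totals ran from 8037826 to 10702930 counts. H3f4, the current symbol of H3t, had 390, 571 and 356 counts in WT and 0 in each deletion library. Marker lists for 9 cell types of the testis had no member at 0 counts throughout either group. The 8 spermatid markers summed to between 20474 and 22351 CPM (counts scaled to library size) in WT and to between 5.72 and 64.1 in the deletion, where replicate 1 was the highest. Of the 17038 tested genes 14403 passed a false discovery rate of 0.05, and the split between higher and lower calls moved with the scaling of the libraries. TMM, used throughout unless another scaling is named, put the median of all genes at -0.19 (log2) and made 45.4% of calls higher. Median-of-ratios scaling gave -0.36 and 42.3%, upper-quartile scaling 0.35 and 55.1%, and no scaling factor 0.45 and 56.6%.

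Of the 9 members, 8 passed the filter on low counts, and each of these had at least 12 counts in each of the 6 libraries. All 8 were higher in the deletion by edgeR's quasi-likelihood test, a call that 38.4% of all tested genes received in that direction and 46.1% in the other. Igfbp3 rose 18.8-fold, Igf1 6.18-fold, Igf1r 5.59-fold and the other binding proteins between 1.44-fold (Igfbp5) and 4.93-fold (Igfbp4). With upper-quartile scaling 8 members were higher and 0 lower, beside 47.6% and 38.8% of all genes, and with no scaling factor 8 and 0, beside 49.2% and 37.7%. With median-of-ratios scaling 7 were higher and 0 lower, beside 35.4% and 48.3%. In bulk tissue, more cells of a type and more RNA per cell cannot be told apart. CPM are relative, so neither can be told from a larger share of the library where RNA of other cells is lost.

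The bases before the annotated start of 3 binding protein genes are shown because these genes mark the range of the data: Igfbp3 changed the most, Igfbp5 the least, and Igfbp7 had the highest level per length in the deletion. They come from RefSeq on GRCm38.p6, run 5′ to 3′ on the gene's strand and stop before the GENCODE gene model. Igfbp3 is chr11:7213924-7214173, minus strand, Igfbp5 chr1:72874885-72875115, minus strand, and Igfbp7 chr5:77408046-77408295, minus strand. Capitals mark matches, on either strand, to 4 short promoter motifs. The GC box was searched as GGGCGG, a site of general activators of the Sp family. The TATA box, which places the transcription machinery, was searched as TATANA. The box named CCAAT was searched by these letters. The site of NR5A1, the nuclear receptor of steroid-producing cells, was searched as CAAGGTCA.
Igfbp3: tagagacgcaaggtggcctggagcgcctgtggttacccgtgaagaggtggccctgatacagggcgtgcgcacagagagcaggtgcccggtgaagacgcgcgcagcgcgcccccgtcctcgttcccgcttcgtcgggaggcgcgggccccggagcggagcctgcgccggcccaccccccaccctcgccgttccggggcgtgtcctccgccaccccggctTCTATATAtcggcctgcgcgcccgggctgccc
Igfbp5: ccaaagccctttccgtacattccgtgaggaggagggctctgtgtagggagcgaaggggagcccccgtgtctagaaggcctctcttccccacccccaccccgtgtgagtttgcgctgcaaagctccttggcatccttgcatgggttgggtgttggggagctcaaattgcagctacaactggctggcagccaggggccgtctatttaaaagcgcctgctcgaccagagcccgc
Igfbp7: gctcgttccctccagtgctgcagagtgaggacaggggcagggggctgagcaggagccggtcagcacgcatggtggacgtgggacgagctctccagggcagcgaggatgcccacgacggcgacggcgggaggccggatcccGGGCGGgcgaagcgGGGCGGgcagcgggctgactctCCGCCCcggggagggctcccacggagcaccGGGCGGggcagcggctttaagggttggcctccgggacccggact

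Igfbp7 carried 4 GC boxes in the 250 bases before its start, and Igfbp3 carried 2 overlapping TATA box matches. Igfbp5 held no exact match to the letters of the 4 motifs, and looser forms were not searched. All 9 members were matched in the RefSeq table, with 12 starts. Igfbp2 had 2 starts and Igfals 3, and a member counted if any of its starts matched. The shares over all genes count single starts, so the 2 kinds of count are not alike. A GC box stood before at least 1 start of 4 of them (Igf1r, Igfbp2, Igfbp7 and Igfals) and before 32.7% of all 32851 starts in the table. The TATA box letters stood before 4 members (Igfbp3, Igfbp4, Igfbp6 and Igfals) and 22.6% of all starts. Their first bases lay 32 and 30 bases before the start of Igfbp3 and 28 before that of Igfbp4. Those of Igfbp6 lay at 148 and 146, and that of Igfals at 244. A CCAAT box stood before 3 members (Igf1, Igfbp6 and Igfals) and 33.8% of all starts. The NR5A1 letters matched before 0 members and 1.33% of all starts. GC content was 77.6% before Igf1r, 73.2% before Igfbp3, 58.8% before Igfbp5 and 74% before Igfbp7, against a median of 52.4% over all starts. These matches describe letters only.

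The ligand rose. Igf1 (ENSMUSG00000020053, GRCm38 chromosome 10, 87858265 to 87937042, plus strand) stood at 16.8, 23.1 and 20.7 CPM in WT replicates 1, 2 and 3 and at 149, 109 and 119.8 CPM in deletion replicates 1, 2 and 3. All deletion libraries lay far above all WT libraries, with replicate 1 the highest. The means were 20.2 ± 3.19 and 126 ± 20.4 CPM (SD, n = 3 each). The log2 change was 2.63 (standard error 0.14, 95% interval 2.32 to 2.93). Its p from edgeR's quasi-likelihood test, after Benjamini-Hochberg adjustment over all genes, was 1.05e-10. It stood above the change of 93.3% of the tested genes. The antisense gene Igf1os, which lies within the span of Igf1 but shares no exon base with it, had 0 counts in WT and 1, 0 and 3 in the deletion.

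The receptor rose in the same direction and with little spread. Igf1r (ENSMUSG00000005533, chromosome 7, 67952827 to 68233668, plus strand) stood at 27.2, 33.1 and 29.9 CPM in WT and at 166, 165 and 175 CPM in the deletion. The groups lay far apart, and the coefficient of variation was 9.81% in WT and 3.28% in the deletion. Its log2 change was 2.48 (standard error 0.10, 95% interval 2.26 to 2.70), with an edgeR adjusted p of 3.20e-12. The intervals of Igf1 and Igf1r overlapped.

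Igfbp3, the binding protein that carries most IGF1 in blood plasma together with the product of Igfals, showed the largest change among the members. Igfbp3 (ENSMUSG00000020427, chromosome 11, 7206086 to 7213923, minus strand) had 12, 23 and 24 counts in WT and 612, 410 and 605 in the deletion, or 1.87, 2.67 and 3.38 CPM against 56.4, 37.1 and 57.7 CPM. The lowest deletion library, replicate 2, was still several times above the highest WT library. The fold change of 18.8 had a 95% interval of 13.1 to 27.0 and an edgeR adjusted p of 1.95e-10, and it was the 99th largest gain of all tested genes. With 59 counts in WT over the 3 libraries, counting error alone gives a coefficient of variation of 22.5% per WT library, close to the 28.7% observed.

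Igfbp4, Igfbp7 and Igfbp2 rose by similar factors. Igfbp4 (ENSMUSG00000017493, chromosome 11, 99041244 to 99054392, plus strand), known as an inhibitor of IGF1 until the protease PAPP-A cuts it, went from 11.1, 11.4 and 14.1 CPM to 67.8, 46.8 and 65.7 CPM. Igfbp7 (ENSMUSG00000036256, chromosome 5, 77349240 to 77408041, minus strand), which binds IGF1 only weakly and is known from blood vessel walls, went from 22.6, 27.8 and 23.4 CPM to 123, 111 and 127 CPM. Igfbp2 (ENSMUSG00000039323, chromosome 1, 72824503 to 72852474, plus strand), which binds IGF2 as well as IGF1, went from 3.27, 5.0 and 6.48 CPM to 19.9, 15.3 and 24.3 CPM. In none of these 3 genes did the groups overlap. In that order, log2 changes were 2.30, 2.29 and 2.0 (standard errors 0.17, 0.12 and 0.26). Their edgeR adjusted p-values were 4.99e-09, 3.53e-11 and 3.24e-06. Igfbp7 shares 85 exon bases with Polr2b on the opposite strand, and the strand setting of the counting is not given in the sources used here. Of the 50-mers of its transcripts, 2.99% occur in other genes, as do 1.72% of those of Igfbp4 and none of those of the other members.

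Igfbp6, which prefers IGF2 over IGF1, rose less. Igfbp6 (ENSMUSG00000023046, chromosome 15, 102144362 to 102149511, plus strand) stood at 22.1, 22.7 and 24.7 CPM in WT and at 74.3, 84.6 and 79.3 CPM in the deletion. The groups were clearly separate and spread by 5.82% and 6.49% (coefficients of variation). The log2 change was 1.78 (standard error 0.12), with an edgeR adjusted p of 9.18e-10.

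Igfbp5 changed the least of the 8 tested members. Igfbp5 (ENSMUSG00000026185, chromosome 1, 72857932 to 72874884, minus strand), whose product binds the extracellular matrix as well as IGF1, stood at 11.1, 16.7 and 14.1 CPM in WT and at 16.1, 22.5 and 21.9 CPM in the deletion. The groups overlapped, since deletion replicate 1 lay below WT replicate 2. It was the single tested member whose groups did, where 39.2% of all tested genes were higher and 46.7% lower with no overlap. The log2 change of 0.52 (95% interval 0.10 to 0.95) had an edgeR adjusted p of 0.0243. The call was lost without WT replicate 1, WT replicate 3, deletion replicate 2 or deletion replicate 3, at log2 changes of 0.36, 0.49, 0.45 and 0.46, and in a test against a 1.5-fold change (adjusted p = 0.419). It was also lost with median-of-ratios scaling, DESeq2 and limma voom, at adjusted p-values of 0.118, 0.176 and 0.0542. Igfbp2 and Igfbp5 are neighbours on chromosome 1, transcribed towards each other, and their intervals of 1.44 to 2.55 and 0.10 to 0.95 on the log2 scale did not overlap.

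Igfals (ENSMUSG00000046070, chromosome 17, 24865997 to 24882010, plus strand), which encodes the subunit that completes the IGF1 complex in blood plasma and is known as a liver product, was near the limit of detection. It had 4 counts in WT replicate 3 and 0 in the other 5 libraries. It did not pass the filter on low counts. A count of 0 over the 3 deletion libraries allows a level of up to 0.0926 CPM, a limit that covers counting error only.

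**Figure D1:**
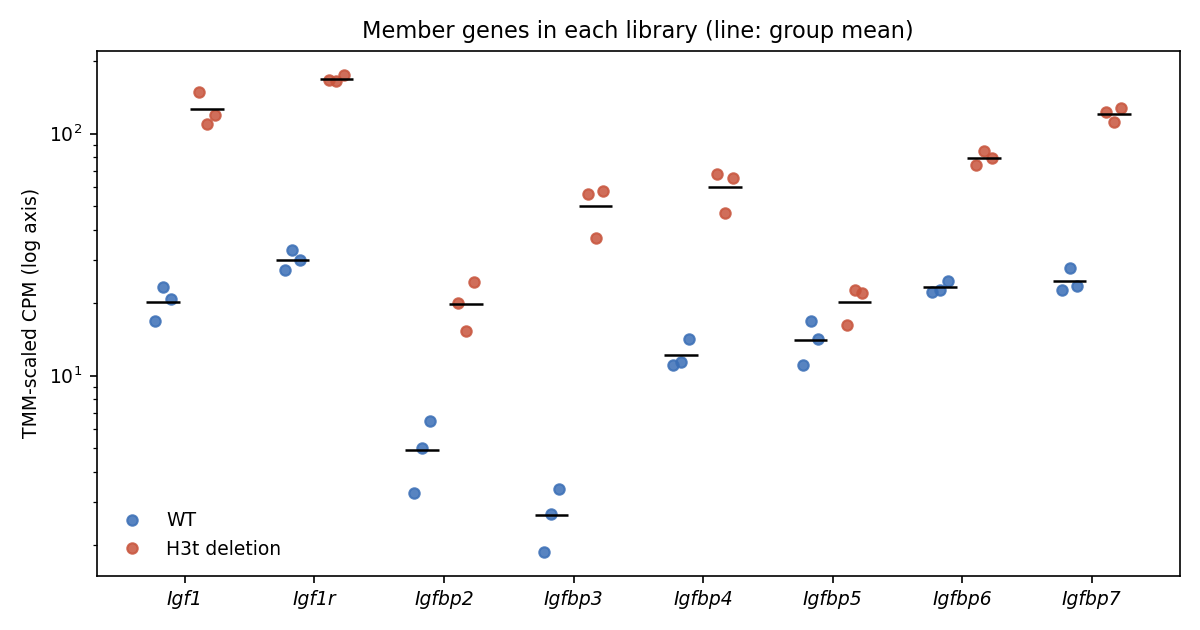
TMM-scaled CPM on a log axis for the 8 tested members in each of the 3 WT and 3 H3t deletion libraries, with lines at the group means. The groups stand apart for 7 members and overlap for Igfbp5, and the widest gap, from a mean of 2.64 to 50.4 CPM, is that of Igfbp3.

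Levels were compared between genes per kilobase of exon (CPM per kilobase). In WT, Igfbp6 and Igfbp7 were the highest, at 20.8 ± 1.21 and 20.3 ± 2.32 CPM per kilobase (SD, n = 3), and did not differ beyond their spread. Igfbp4, Igfbp2, Igfbp5, Igf1 and Igf1r followed at 2.76 ± 0.378, 2.66 ± 0.871, 2.33 ± 0.474, 2.04 ± 0.322 and 1.79 ± 0.176, each within its spread of the next. Igfbp3 was the lowest, at 0.844 ± 0.242. In the deletion the order changed at both ends. Igfbp7, at 99.6 ± 6.78, now stood above Igfbp6, at 71.4 ± 4.64, and Igfbp3 moved from the last place to the third, at 16.1 ± 3.68. Igfbp4, Igf1, Igfbp2 and Igf1r lay at 13.6 ± 2.61, 12.7 ± 2.06, 10.7 ± 2.44 and 10.1 ± 0.33, and neighbours from Igfbp3 to Igf1r did not differ beyond their spread. Igfbp5 was the lowest, at 3.36 ± 0.589. Among all tested genes, Igf1 moved from above 35.3% to above 84.4% of them and Igfbp3 from above 20.3% to above 88.4%.

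The make-up of the binding protein mRNA shifted within libraries, where no scaling factor enters. Of the summed counts per kilobase of Igfbp2 to Igfbp7, Igfbp3 made up 1.32%, 1.63% and 2.09% in WT and 8.37%, 5.84% and 8.13% in the deletion. Igfbp5 made up 4.07%, 5.33% and 4.54% in WT and 1.25%, 1.85% and 1.61% in the deletion. The order of Igfbp3 and Igfbp5 was therefore opposite in the 2 groups, in every library. Igfbp6 went from 41.9% ± 2.61 to 33.4% ± 3.64 and Igfbp7 from 40.9% ± 3.26 to 46.4% ± 0.889 (SD, n = 3). For these 4 genes the groups did not overlap, with an exact two-sided permutation p of 0.1 each, the smallest that 3 against 3 libraries can give, and 0.15 adjusted over the 6 shares. The groups overlapped for Igfbp2 and Igfbp4, at 5.29% ± 1.45 and 4.96% ± 0.863 for Igfbp2 and at 5.55% ± 0.622 and 6.31% ± 0.973 for Igfbp4 (exact permutation p = 0.8 and 0.3). Undivided by gene length, the differences of Igfbp3 and Igfbp5 were 11.1 and -11.2 percentage points, in place of 5.77 and -3.08. Those of Igfbp6 and Igfbp7 were then -5.71 and 4.16, in place of -8.59 and 5.47. The exact permutation p of Igfbp6 rose to 0.2, so its groups no longer stood apart.

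**Figure D2:**
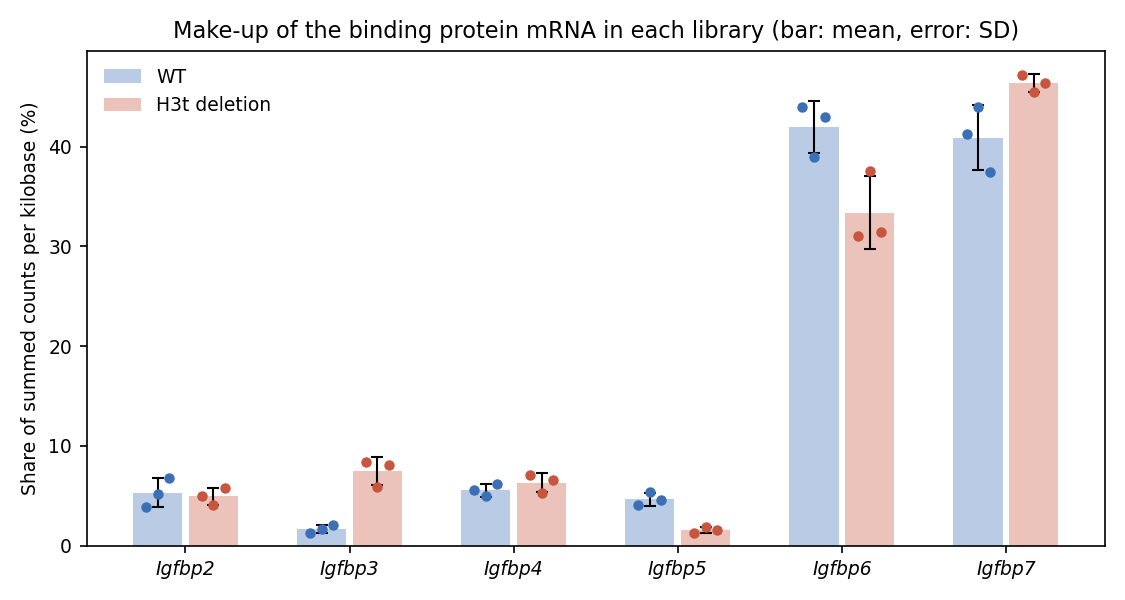
Share of each binding protein gene, in percent, of the summed counts per kilobase of Igfbp2 to Igfbp7. Bars are group means with SD and points are the 3 libraries of each group. Igfbp6 and Igfbp7 hold most of the sum in both groups, Igfbp3 is higher and Igfbp5 lower in every deletion library than in every WT library.

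The ligand gained on the summed level of its binding proteins, most of which was Igfbp6 and Igfbp7, but not on each of them. The log2 ratio of Igf1 to the summed Igfbp2 to Igfbp7 level per kilobase was -4.74, -4.48 and -4.63 in WT and -3.84, -4.20 and -4.23 in the deletion. All deletion libraries were higher, by 0.53 on average (exact two-sided permutation p = 0.1, the smallest possible), and the difference was 0.40 without deletion replicate 1. Since Igfbp6 prefers IGF2 and Igfbp7 binds IGF1 only weakly, this mRNA ratio does not measure how much IGF1 is bound. Gene by gene with TMM, Igfbp3 rose more than Igf1, at log2 changes of 4.23 and 2.63. The other binding proteins rose less than Igf1, between 0.52 (Igfbp5) and 2.30 (Igfbp4). The intervals of Igfbp2, Igfbp4 and Igfbp7 overlapped that of Igf1.

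Markers of several testis cell types moved together with the members. All 14 Leydig markers and all 16 Sertoli markers were called higher, where 38.4% of all tested genes were higher and 46.1% lower. The Leydig list summed to between 746 and 789 CPM in WT and between 6390.1 and 6891 CPM in the deletion, and the Sertoli list to between 1237 and 1361 CPM and between 5366 and 5564 CPM. Macrophage markers (9 of 9 higher) summed to between 100.6 and 111 CPM in WT and between 479 and 561 CPM in the deletion, and endothelial markers (6 of 9 higher) to between 47.9 and 54.6 CPM and between 110.1 and 115 CPM. Mesenchymal markers (7 of 8 higher) went from between 281 and 327 CPM to between 1008 and 1054 CPM, and myoid and smooth muscle markers (6 of 8 higher, 1 lower) from between 646 and 667 CPM to between 721 and 778 CPM. Spermatocyte markers (8 of 8 lower) went from between 4099.7 and 4445 CPM to between 299 and 341 CPM, and spermatogonial markers (7 of 8 higher) from between 105 and 135 CPM to between 462 and 507 CPM. None of the markers was at 0 throughout a group. Their part in the members' changes was not tested.

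Set within each library against the Leydig, Sertoli, macrophage and mesenchymal lists, Igfbp3 was higher and Igfbp5 lower in the deletion. Most genes fell against the Leydig and Sertoli lists. With the mean Leydig or Sertoli marker set equal in all libraries, 87.7% and 75.6% of all tested genes were called lower. The median log2 changes were then -3.08 and -2.28. Igfbp5, at -2.38 and -1.56, stood 0.71 and 0.72 above these medians, so it fell less than the median gene. Such shares were not computed for the other lists. The log2 CPM of Igfbp3 minus the mean of the Leydig list was -4.11, -3.54 and -3.32 in WT and -2.23, -2.77 and -2.22 in the deletion, a gain of 1.25. Against the Sertoli list Igfbp3 gained 2.03, and against the macrophage, mesenchymal, endothelial and myoid lists it gained 1.55, 2.27, 3.0 and 3.81. Igfbp5 minus the Leydig list was -1.67, -0.99 and -1.33 in WT and -4.02, -3.48 and -3.61 in the deletion, a difference of -2.37. Its differences against the Sertoli, macrophage and mesenchymal lists were -1.60, -2.08 and -1.35. Against the endothelial list it differed by -0.62 and against the myoid list by 0.18, and there the groups overlapped (exact permutation p = 0.2 and 0.5). In the other 4 comparisons of Igfbp5, and in all 6 of Igfbp3, the groups did not overlap (exact two-sided permutation p = 0.1, the smallest possible, and 0.129 adjusted over 72 pairs of member and list). The share of all genes with no overlap against a marker list was not computed. In CPM without a list, 39.2% of all tested genes were higher and 46.7% lower with no overlap.

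The groups overlapped for Igf1 against the Leydig list, with means of -0.79 ± 0.28 for WT and -1.07 ± 0.21 for the deletion (an exact permutation p of 0.2, n = 3 each). The difference of -0.28 was -0.42 without WT replicate 1 and -0.14 without WT replicate 2. Igf1 gained 0.50 on the Sertoli list, or 0.33 on the median of that list, with no overlap between the groups. Igf1r differed from the Leydig list by -0.42 and gained 0.36 on the Sertoli list, or 0.19 on its median, again with no overlap. Igfbp2, Igfbp4, Igfbp6 and Igfbp7 differed from the Leydig list by -0.91, -0.63, -1.13 and -0.62 with no overlap of the groups. With the Leydig markers set equal, 87.7% of all tested genes were called lower, at a median log2 change of -3.08. Against the macrophage list Igf1 and Igf1r differed by 0.02 and -0.12 (exact permutation p = 1 and 0.7).

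**Figure D3:**
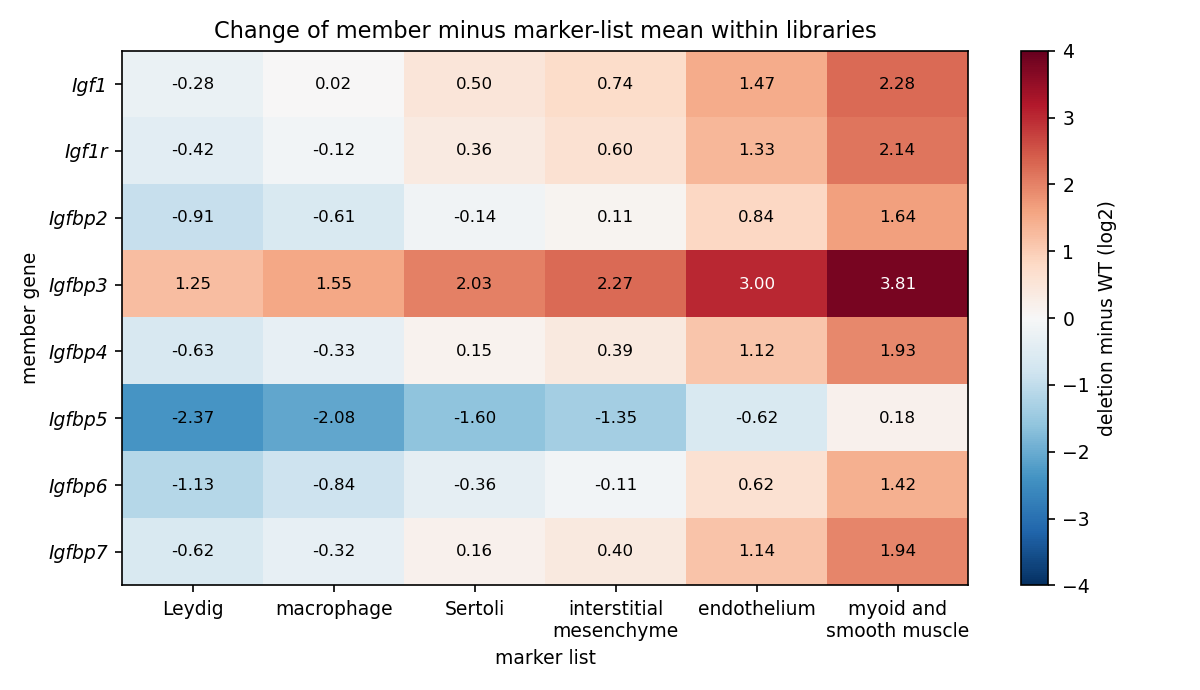
Change between the groups, deletion minus WT on the log2 scale, of each member's log2 CPM minus the mean log2 CPM of a marker list in the same library (red: gained on the list, blue: lost). Igfbp3 gained on all 6 lists shown, and Igfbp5 lies below 0 against each list but the myoid one, at 0.18.

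With the mean Sertoli marker set equal in all libraries (Sertoli level), the median change of all genes was -2.28. At that level Igf1, Igf1r and Igfbp3 were called higher, at log2 changes of 0.54, 0.39 and 2.16, where 4.81% of all genes were. Igfbp5 and Igfbp6 were called lower, at -1.56 and -0.32, where 75.6% of all genes were. At Leydig level, the same with Leydig markers and a median of -3.08, Igfbp3 alone was called higher, at 1.34, where 0.798% of all genes were. Igf1 was at -0.27 and not called (adjusted p = 0.122), and the other 6 were called lower, between -0.42 (Igf1r) and -2.38 (Igfbp5), where 87.7% of all genes were. The direction of Igf1, Igf1r and all binding proteins but Igfbp3 thus depended on whether the level was set by all genes or by Leydig genes.

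**Figure D4:**
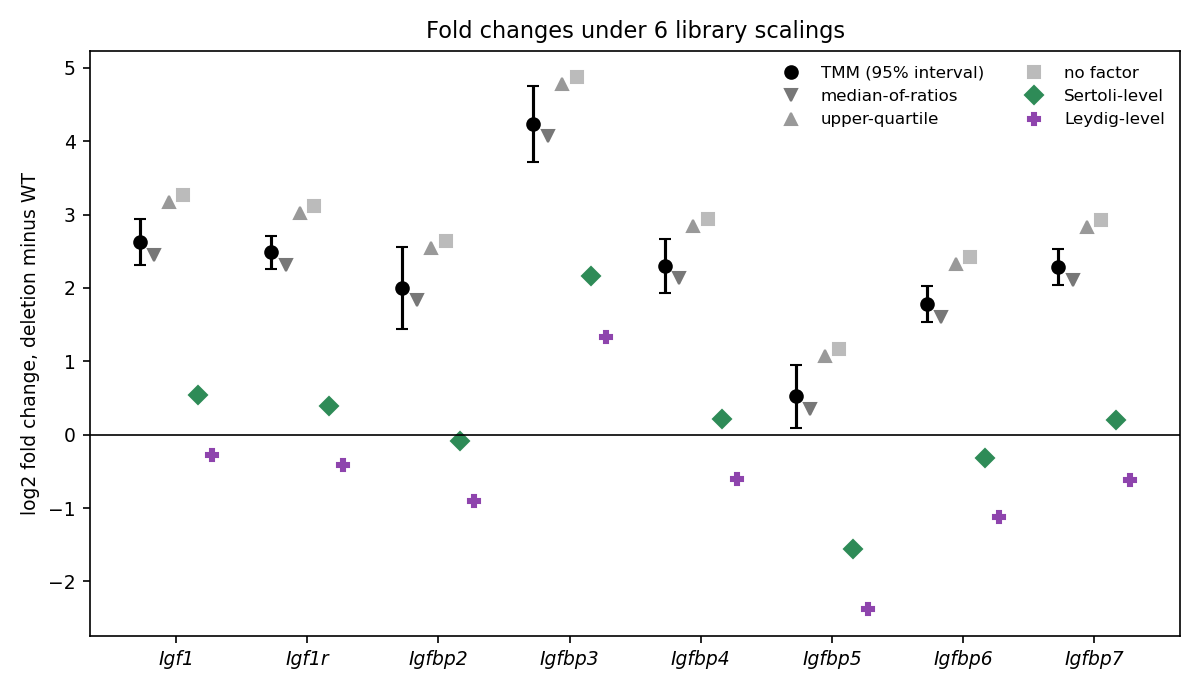
Fitted log2 fold change of each tested member, deletion minus WT, under 6 library scalings, with the 95% interval for TMM. With the 4 scalings based on all genes every member lies above 0, and at Leydig level only Igfbp3 does, at 1.34.

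The rest of the pathway moved in both directions. Of 47 other IGF pathway genes 40 were tested, and 30 were higher and 7 lower by edgeR's quasi-likelihood test, against 38.4% and 46.1% of all genes. Their median log2 change was 1.25, beside -0.19 over all genes. At Sertoli level 5 were higher (Htra1, Stc2, Irs1, Stat5b and Grb14) and 26 lower, beside 4.81% and 75.6% of all genes. At Leydig level 1 was higher (Htra1, at 0.48) and 32 lower, beside 0.798% and 87.7%.

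Other ligands were scarce. Igf2, the second ligand of the receptor and an imprinted gene, had 2, 10 and 4 counts in WT and 22, 15 and 32 in the deletion. Its log2 change was 1.58 (standard error 0.57, edgeR adjusted p = 0.0173). The call was lost with DESeq2, at 1.47, and without WT replicate 1, WT replicate 3 or deletion replicate 3, at 1.24, 1.42 and 1.25. The insulin gene Ins1 had 0 counts in every library and Ins2 at most 3. Of binding protein genes outside the members, Igfbpl1 had 0 counts in WT and 4, 1 and 4 in the deletion, and Igfbp1 had 1 count in all.

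The related receptors Insr and Igf2r were also higher. Insr, the insulin receptor, went from 26.2 ± 2.83 to 75.9 ± 7.67 CPM, a log2 change of 1.53, and Igf2r, which takes IGF2 to lysosomes, from 32.3 ± 4.53 to 53.3 ± 3.09 CPM, a log2 change of 0.73 (SD, n = 3). Their 95% intervals, 1.26 to 1.80 and 0.45 to 1.0, did not reach that of Igf1r.

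Proteases that cut binding proteins, and their inhibitors, rose. Htra1, a secreted serine protease that cuts Igfbp5 among other substrates, went from 5.29, 4.65 and 3.52 CPM to 50.6, 41.5 and 48.5 CPM, and Stc2, an inhibitor of PAPP-A, from 1.87, 1.28 and 0.564 CPM to 12.6, 12.8 and 10.9 CPM. Pappa, which encodes PAPP-A, went from 21.6, 17.2 and 13.8 CPM to 48.0, 44.0 and 39.8 CPM. The groups did not overlap in any of these genes, where 39.2% of all tested genes were higher and 46.7% lower with no overlap. The log2 changes of Htra1, Stc2 and Pappa were 3.38, 3.29 and 1.33, with edgeR adjusted p-values of 1.08e-10, 3.24e-07 and 2.01e-06. All 4 tested genes of this role were higher with TMM, beside 38.4% of all tested genes. Pappa was called lower at Sertoli and Leydig level, at -0.77 and -1.57, beside 75.6% and 87.7% of all genes.

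Among receptor adaptors 8 of 10 were higher and 2 lower, beside 38.4% and 46.1% of all tested genes. Irs1, the insulin receptor substrate that docks PI3K, rose the most, from 3.11, 6.39 and 3.52 CPM to 43.5, 40.5 and 38.4 CPM, a log2 change of 3.19. Grb14, an adaptor known to restrain the insulin receptor, was at 2.61, Ptpn11, a phosphatase that favours MAPK signalling, at 2.01, and Grb2, which links receptors to RAS, at 1.89.

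PI3K, AKT and mTOR genes were split, with 11 of 18 higher and 5 lower, beside 38.4% and 46.1% of all tested genes. Pik3r1, a regulatory subunit of PI3K, rose by 2.23 on the log2 scale, Foxo3, a transcription factor that AKT keeps out of the nucleus, by 2.20, and Akt1 by 1.81. Pdpk1, the kinase that activates AKT, fell from 259, 221 and 279 CPM to 68.2, 56.0 and 64.0 CPM, a log2 change of -2.01. Mtor, the kinase of the mTOR complexes, which was named after its values were seen, was at -1.53. The largest edgeR adjusted p among these 5 genes was 2.55e-09, that of Akt1.

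Growth hormone signalling genes, which control Igf1 in liver, were higher in 4 of 5 tested cases with TMM, beside 38.4% of all tested genes. At Leydig level the log2 changes of Ghr, Jak2, Stat5a, Stat5b and Socs2 were all negative, beside a median of -3.08 over all genes. Of these, Jak2 and Stat5b, at -0.42 and -0.028, were not called, where 87.7% of all genes were called lower. At Sertoli level Stat5b alone of the 5 genes was called higher, beside 4.81% of all genes. With TMM, Jak2, the kinase of the growth hormone receptor, changed by 2.48 (log2) and Stat5b, the transcription factor it activates, by 2.86. The receptor gene Ghr had 40, 48 and 33 counts in WT and 118, 73 and 92 in the deletion, a log2 change of 0.67 with an edgeR adjusted p of 0.0332. That call was lost without WT replicate 2, WT replicate 3, deletion replicate 1 or deletion replicate 3, at 0.67, 0.53, 0.50 and 0.67, and with median-of-ratios scaling, at 0.50. It was also lost at a false discovery rate of 0.01, against a 1.5-fold change, with DESeq2 (0.51) and with limma voom (0.64), at adjusted p-values of 0.217, 0.181 and 0.0637 in the last 3.

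**Figure D5:**
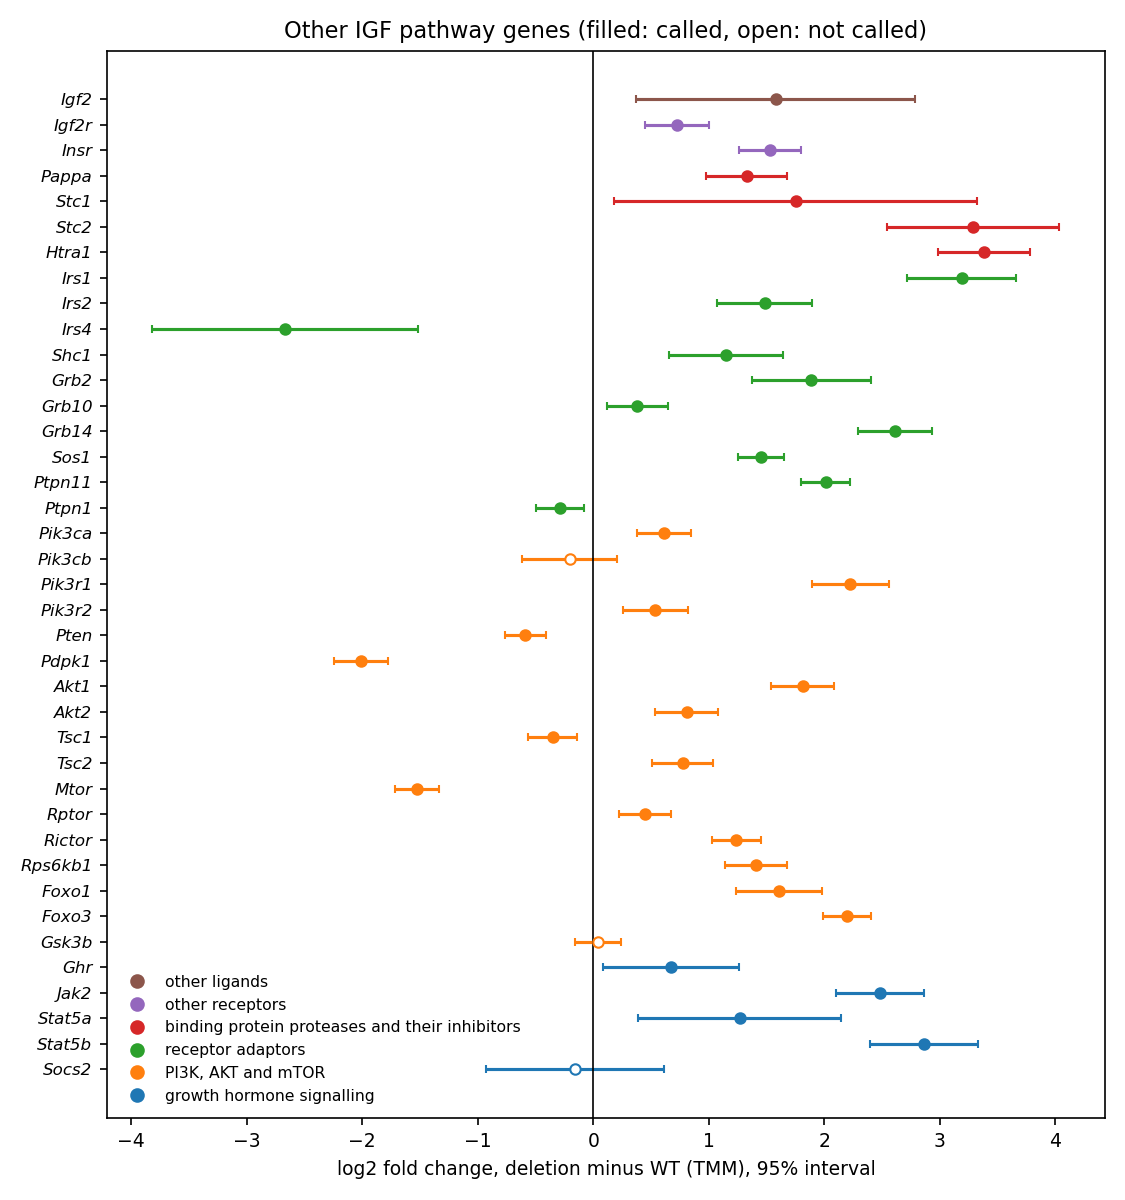
Fitted log2 fold change of 39 of the 40 tested genes of the IGF pathway outside the members, deletion minus WT with TMM, with 95% intervals and coloured by role. Htra1 and Stc2, at 3.38 and 3.29, lie farthest to the right, and Irs4 and Pdpk1, at -2.67 and -2.01, farthest to the left.

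Some genes had library profiles close to those of the members. Likeness was measured as the Euclidean distance between log2 CPM profiles over the 6 libraries, each centred on its own mean, among 9474 other genes averaging 10 CPM or more. The closest to Igf1 were Cyb5r1, Tmem176b and Nfib, at distances of 0.21, 0.22 and 0.24. The closest to Igf1r were Enpp5, Eid1 and Hgsnat, at 0.03, 0.11 and 0.12, and to Igfbp7, the binding protein with the highest level per length in the deletion, Cadps, Nfix and Jun, at 0.08, 0.08 and 0.10. Such distances follow mainly the difference between the groups.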

How the data were processed

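The authors deposited raw counts of reads per Ensembl gene for 3 WT and 3 H3t deletion libraries, whose preparation used TaKaRa's strand-preserving SMART-Seq chemistry on RNA from cryosections, per the labels' protocols. Trim Galore, HISAT2 and featureCounts were used on GRCm38, per the submitters' processing notes. Tool versions, the annotation release and the use of strand in counting were not given in the sources used here. Columns were matched to samples by the mouse number in the title. Nothing beyond that number says how the samples were collected, so p-values reflect only how far these 6 samples vary, in part perhaps technically. No pair of libraries agreed within sampling noise (chi-square per degree of freedom 4.75 to 7.32 within groups).

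All 54100 gene IDs were found in GENCODE M21 (GRCm38), which gave coordinates, exon lengths and 50-mers shared with other genes. In R 4.3.3, edgeR 4.0.16 fitted the deletion against WT on the 17038 genes left by filterByExpr, with TMM and Benjamini-Hochberg adjustment at 0.05. Standard errors were taken from the F statistic. One count was worth 0.0904 to 0.156 CPM. A prior count of 2 entered log2 CPM in the marker-list differences. The steps were tested on simulated counts with the WT profile in both groups and few genes changed. That did not test the scaling where most genes change, as in these data. Exact permutation tests cannot go below 0.1 here. Alternatives used other scalings, filters, thresholds, DESeq2 1.42.0, limma 3.58.1, other lengths and list scores, and each library left out. Members and lists were chosen with earlier results of these data known. Named were all members and, per pathway role, up to 4 called genes averaging 5 CPM or more and with the largest change, or else the most abundant gene, plus the 3 closest profiles to Igf1, Igf1r and Igfbp7. Promoter motifs were chosen with the data in view. One pathway gene counted in the totals is not reported here.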

Additional observations from a re-analysis of the deposited data

How the results depend on the processing

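The log2 changes of Igf1, Igf1r, Igfbp2, Igfbp3, Igfbp4, Igfbp6 and Igfbp7 kept their direction and their call with TMM, median-of-ratios, upper-quartile and no scaling, under both other filters, at a false discovery rate of 0.01, against a 1.5-fold change, with DESeq2 and limma voom and without each library. Igfbp5 lost its call with median-of-ratios scaling (0.36), at the rate of 0.01 and against a 1.5-fold change (both 0.52), with DESeq2 (0.37) and with limma voom (0.50), and ranged from 0.36 to 0.67 without single libraries. At Sertoli level Igfbp4 and Igfbp7 were not called (0.21 and 0.20), and Igfbp2, Igfbp5 and Igfbp6 turned to -0.084, -1.56 and -0.32. At Leydig level Igf1, Igf1r, Igfbp2, Igfbp4, Igfbp5, Igfbp6 and Igfbp7 turned to -0.27, -0.42, -0.90, -0.60, -2.38, -1.12 and -0.61. These last scalings remove the change of their marker list by construction. Members called higher numbered 3 at Sertoli and 1 at Leydig level, in place of 8, and lower 2 and 6, in place of 0 with TMM (edgeR, with 0 also at an unadjusted p under 0.05, and 0 with DESeq2 and limma voom).

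Over all genes, 820 and 136 were higher and 12874 and 14946 lower at Sertoli and Leydig level, and 5051 were lower with a filter of 10 CPM, in place of 6542 higher and 7861 lower. Pathway genes called higher numbered 5 and 1 at these levels, in place of 30. Pathway genes called lower numbered 26 and 32 at these levels, and 4 with upper-quartile scaling, no scaling factor, the 10 CPM filter or a 1.5-fold threshold, in place of 7. At Sertoli level Igf2, Insr, Igf2r, Pappa, Ptpn11, Grb2, Akt1 and Ghr turned to -0.47, -0.56, -1.38, -0.77, -0.082, -0.18, -0.28 and -1.42. At Leydig level Igf2, Insr, Igf2r, Pappa, Grb14, Ptpn11, Grb2, Pik3r1, Foxo3, Akt1, Stat5b, Jak2 and Ghr turned to -1.31, -1.37, -2.17, -1.57, -0.28, -0.89, -1.01, -0.67, -0.70, -1.08, -0.028, -0.42 and -2.23.

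Within libraries, the share of Igfbp2, which differed by -0.33 percentage points, ranged from -1.02 to 0.42 without single libraries. With the median of a list in place of its mean, Igf1 against the macrophage list was at -0.0041, Igfbp2 against the mesenchymal list at -0.0066, and Igfbp4 and Igfbp7 against the Sertoli list at -0.022 and -0.0079. With a prior count of 0.5, Igf1 against the macrophage list was at -0.025. Without single libraries, Igf1 against the macrophage list ranged from -0.14 to 0.10, Igfbp2 against the Sertoli list from -0.34 to 0.088 and Igfbp2 against the mesenchymal list from -0.077 to 0.26. The other 372 of 384 recomputed list differences, and all 8 recomputed ratios of Igf1 to its binding proteins, kept their sign, though not always their size.

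No paired analysis was possible because the labels give the groups no shared replicate number. Some mouse numbers in the titles are adjacent across the groups, and the labels do not say whether these mice share a litter or a batch, so no block was fitted. Depth limits Igfals, Igfbp1, Igfbpl1, Ins1 and Ins2, and the WT level of Igfbp3 rests on 59 counts.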
